A study of Mus musculus with 6 samples.

Results

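The genes described here encode 10 heat shock proteins of the cytosol and the mitochondrion: Hspa1a, Hspa1b, Hspa8, Dnajb1 and Hsph1 of the HSP70 machine, Hsp90aa1 and Hsp90ab1, the small heat shock protein gene Hspb1, and the mitochondrial chaperonin genes Hspd1 and Hspe1. They were chosen by symbol, and all 10 were found among 35970 gene symbols, with 48 of 117486 transcripts. They were compared between livers in which Neurl1b, an E3 ubiquitin ligase gene, was targeted for repression and control livers. No member differed between the groups at an adjusted p of 0.05.

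Heat shock proteins are chaperones. They bind unfolded or partly folded proteins, keep them from aggregating and pass them on for folding or breakdown. In the cytosol, HSP40 proteins deliver substrates to HSP70, exchange factors such as HSP110 release them, and HSP90 finishes the folding of kinases and nuclear receptors. Unfolded protein releases the transcription factor HSF1, which binds heat shock elements, arrays of the 5-base unit NGAAN in alternating orientation, and raises transcription of the inducible members. In the mitochondrial matrix, HSP60 forms a barrel that HSP10 closes as a lid.

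All mice carried the Fah-/-;dCas9+ genotype. Fah is the last enzyme of tyrosine breakdown, and dCas9 is a Cas9 that binds DNA without cutting it and here represses the gene a guide RNA points to (CRISPR interference, CRISPRi). The mice were kept on nitisinone at 7.5 µg/mL, which blocks tyrosine breakdown upstream of Fah, until a plasmid (10 µg) and a virus were injected together into the tail vein. The plasmid was pkt2-fah-GFPL10a-CRISPRi-Nontargeting in 3 mice and pkt2-fah-GFPL10a-CRISPRi-Neurl1b in 3 mice, so both groups received Fah and the GFP-tagged ribosomal protein L10a, and the virus AAV8.TBG.PI.Cre.rBG brought Cre under a hepatocyte promoter. Nitisinone was then withdrawn and livers were taken after 4 weeks, so that only hepatocytes with the plasmid had Fah. Ribosomes with the tag were pulled down from 400 mg of liver, and their polyadenylated RNA was sequenced. The mouse is the replicate, and 1 plasmid per group was named. The age of the mice and the sequence of the guides were not used here.

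Levels are in TPM, a transcript abundance unit that corrects for transcript length and fixes the total of every library, so the depth of each library is unknown and no counting interval can be given. Each library is ribosome-bound RNA pulled down from many cells at once, so fewer cells of a type and less RNA per cell cannot be told apart. How RNA of other cell types entered the pull-down was not measured, so their markers need not follow the makeup of the liver. Neurl1b itself ranged from 0.688 to 1.22 TPM among controls and from 0.295 to 0.351 among CRISPRi mice. Hepatocyte markers (7 of 8 listed were in the table) summed to between 21892 and 56306 TPM, against 68.7 to 149 for Kupffer cell and macrophage markers, 13.3 to 25.7 for cholangiocyte, 16.3 to 24.5 for endothelial, 11.2 to 40.8 for stellate cell and 0.961 to 2.55 for lymphocyte markers, and none of these markers was at 0 in all libraries. The summed stellate cell markers separated the groups, at 11.2 to 25.1 TPM in the controls and 28.3 to 40.8 with CRISPRi. Dcn made up most of that sum. Des, Lrat and Acta2 also separated the groups, and Col1a1, Col1a2, Col3a1 and Pdgfrb overlapped. The macrophage markers Adgre1, Cd68, Csf1r and Vsig4 were higher with CRISPRi without overlap, and the others of that list overlapped. Of the endothelial markers, Stab2, Cdh5 and Vwf were higher and Pecam1 lower without overlap. Of all genes whose mean TPM reached 1, 12.5% were higher and 4.57% lower without overlap. The mean was below 1 for 3 of the stellate cell, 1 of the macrophage and 4 of the endothelial markers. The part of these markers in the results was not tested. Non-targeting mouse 2 stood apart in the summed hepatocyte markers, with 56306 TPM against at most 31084 elsewhere. It also did so in red cell precursor markers, with 3880 against 490 to 1567. Alb, Apoa1, Ttr and Fgb were each highest in that mouse, with Alb at 31253 TPM. Apob (303 TPM), Cps1 (180) and Hnf4a (111) did not stand apart there, with up to 292, 296 and 113 elsewhere. Of the 10598 genes tested, whose mean TPM reached 1, 74.0% had a log2 fold change of TPM + 1 above 0, with a median of 0.18. When each library was scaled by the median ratio of its genes to their geometric means (median-of-ratios scaling), 49.6% were above 0 and the median was -0.0028. These 2 values follow largely from the scaling itself, which sets the typical gene level in every library. With it the summed stellate cell markers of the groups overlapped, as did Dcn, Des, Cd68, Vsig4, Stab2, Cdh5 and Vwf. Lrat, Acta2, Adgre1, Csf1r and Pecam1 still separated the groups.

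The stretches of DNA before the start sites show which members hold heat shock elements and how alike Hspa1a and Hspa1b are. RefSeq upstream sequences (GRCm38.p6) matched 7 of the 10 symbols. Hspa8, Hsp90aa1 and Hsp90ab1 had no entry. Within the 250 bases before a start, the 2-unit element GAANNTTC or TTCNNGAA was searched, and each of these reads the same on both strands. It was found in 6 of the 7 members, and in 14.5% of all 27025 genes with an entry (12.8% of all 32851 upstream windows). The 3-unit element, GAANNTTC followed by NNGAA or, on the other strand, TTCNNGAA followed by NNTTC, contains the 2-unit element. It was found in Hspd1 and Hspe1 and in 0.514% of all genes with an entry (0.466% of all windows). The windows of Dnajb1 held neither. A match is a description of the letters and not evidence that a factor binds.

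Hspa1a and Hspa1b are printed in full because their reads are hard to separate: both are on the minus strand of chromosome 17, with starts 12918 bases apart, at chr17:34972157-34972406 and chr17:34959239-34959488. Capitals mark the 2-unit element.
Hspa1a: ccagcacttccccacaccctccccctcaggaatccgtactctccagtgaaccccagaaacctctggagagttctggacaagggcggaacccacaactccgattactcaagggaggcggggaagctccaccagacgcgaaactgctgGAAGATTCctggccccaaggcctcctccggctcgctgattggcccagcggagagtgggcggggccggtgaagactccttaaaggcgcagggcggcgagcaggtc
Hspa1b: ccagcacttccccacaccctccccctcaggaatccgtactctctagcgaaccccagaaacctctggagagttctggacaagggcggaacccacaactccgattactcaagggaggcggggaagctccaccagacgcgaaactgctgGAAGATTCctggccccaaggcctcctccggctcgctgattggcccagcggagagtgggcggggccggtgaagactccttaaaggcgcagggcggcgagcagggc
They differ at 3 of 250 positions, counted from the 5′ end with the Hspa1a base first, as C44T, T47C and T249G. The element begins 104 bases before the start in both. In the GENCODE vM21 transcripts, the coding sequences were identical in 99.4% of 1926 aligned positions. Of all 31-base words, 63.8% of those in the Hspa1a transcript also occurred in that of Hspa1b.

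For the other members with an element, 30 bases around it are shown, again with the element in capitals. The Hspe1 stretch is chr1:55088053-55088082 (plus strand), the Hspb1 stretch chr5:135887801-135887830 (plus strand) and the Hsph1 stretch chr5:149636351-149636380 (minus strand).
Hspe1: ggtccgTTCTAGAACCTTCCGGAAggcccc
Hspb1: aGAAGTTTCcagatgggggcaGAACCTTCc
Hsph1: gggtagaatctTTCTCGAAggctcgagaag
The Hspe1 stretch holds 3 overlapping 2-unit elements in 1 run. Hspd1 is transcribed in the opposite direction from the same region, so the run also lies 144 to 127 bases before an Hspd1 start and 89 to 72 bases before the Hspe1 start. Hspb1 holds 2 separate elements, and Hsph1 has 1. In the GENCODE vM21 annotation the Hspe1 stretch overlaps an exon of a minor Hspd1 transcript, ENSMUST00000127861, and the Hsph1 stretch overlaps exons of ENSMUST00000200825 and ENSMUST00000201559, both at 0 TPM in all 6 libraries, so these stretches are not upstream of every annotated start.

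Among the 10 genes, levels spanned 3 orders of magnitude. In TPM, which are per length and so can be compared between genes, mean levels over the 6 libraries ran in this order: Hspa8 at 980.1, Hspe1 at 796, Hsp90ab1 at 422, Hsp90aa1 at 307, Hspb1 at 207, Hspd1 at 187, Hsph1 at 18.4, Dnajb1 at 8.49, Hspa1b at 4.86 and Hspa1a at 0.936. The order of some neighbours changed from mouse to mouse. Hspb1 was above Hspd1 in 3 of 6 libraries, and Hsp90ab1 above Hsp90aa1, and Hsp90aa1 above Hspb1, in 5 of 6. Every other neighbour kept its place in 6 of 6. The ranges over libraries were separate for 4 of the neighbour pairs: Hspe1 and Hsp90ab1, Hspd1 and Hsph1, Hsph1 and Dnajb1, and Hspa1b and Hspa1a. All other neighbours overlapped in range. Together the 10 genes made up 0.202% to 0.337% of a library.

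**Figure D1:**
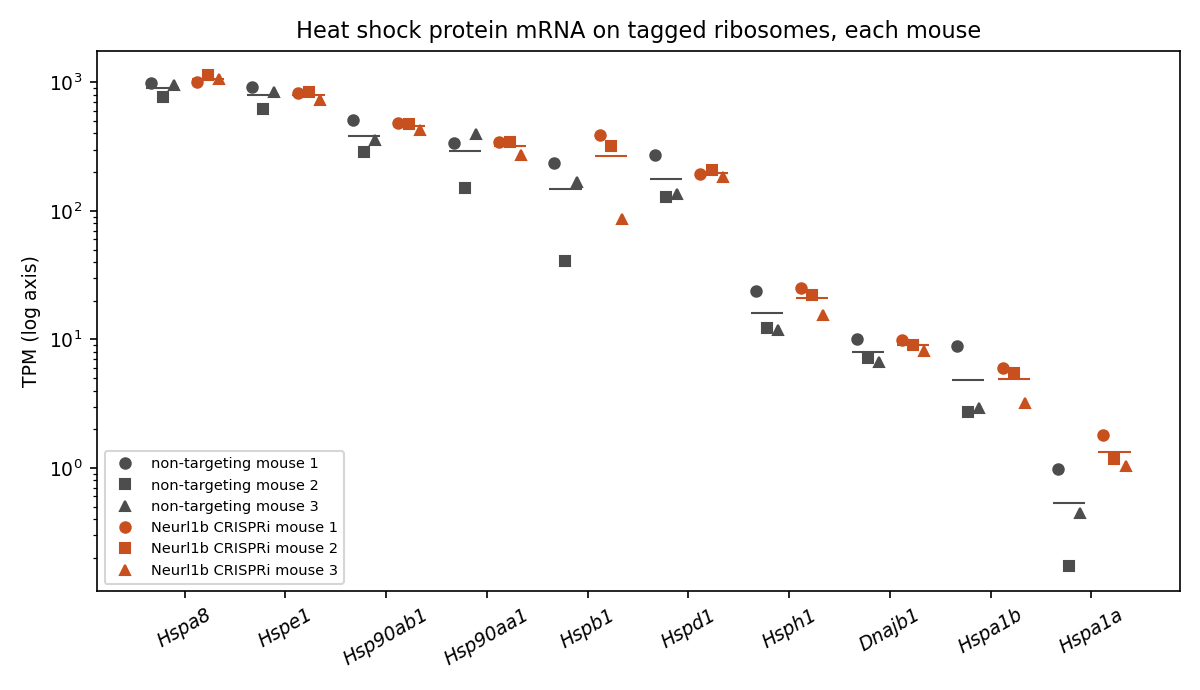
TPM of each member in each of the 6 mice on a log axis, ordered by mean level, with grey symbols for non-targeting and orange symbols for Neurl1b CRISPRi mice and a horizontal line at each group mean. Only in Hspa8 and Hspa1a do the 3 CRISPRi mice lie above all 3 control mice, and non-targeting mouse 2 is the lowest library for 8 of the 10 genes (5 of the 10 with median-of-ratios scaling). Before scaling, that mouse is lowest for 37.1% of all tested genes.

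The HSP70 machine was examined first. Hspa8 encodes HSC70, the constitutive cytosolic HSP70 of folding, clathrin uncoating and chaperone-mediated autophagy. Its TPM was 982, 767 and 945 in non-targeting mice 1 to 3 and 999, 1134 and 1053 in CRISPRi mice 1 to 3. The CRISPRi mice all lay above the controls, although mouse 1 of the CRISPRi group exceeded the highest control only slightly. Group means were 898 ± 115 and 1062 ± 68.1 (SD, n = 3 each), a ratio of 1.18. The log2 fold change was 0.25 (SE 0.16, 95% interval -0.11 to 0.61, limma adjusted p = 0.457). With median-of-ratios scaling it was 0.034 and the groups overlapped.

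Hspa1a and Hspa1b encode the stress-inducible HSP70, which is made in large amounts after heat or proteotoxic injury. In these livers the pair was scarce: their summed TPM was 9.83, 2.89 and 3.35 in the controls and 7.83, 6.65 and 4.23 in the CRISPRi mice, or 0.00355 to 0.0100 of the TPM of Hspa8. Hspa1b gave most of the sum, at 8.85, 2.72 and 2.90 TPM in the controls and 6.01, 5.48 and 3.20 in the CRISPRi mice. Its groups overlapped, with the highest value in non-targeting mouse 1 and the CRISPRi mice between that mouse and the other controls. The log2 fold change of Hspa1b was 0.14 (SE 0.39, limma adjusted p = 0.858), and it was -0.023 with median-of-ratios scaling.

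Hspa1a was at 0.984, 0.172 and 0.447 TPM in the controls and at 1.82, 1.17 and 1.03 in the CRISPRi mice. The CRISPRi mice were all higher, before and after median-of-ratios scaling, but the lowest of them was close to non-targeting mouse 1. With a mean TPM of 0.936, Hspa1a did not pass the filter and was the only member left out of the main test. In the fit without the filter its log2 fold change was 0.63 (SE 0.23, unadjusted p = 0.0381, limma adjusted p = 0.505 over 21941 genes). In that fit 7.52% of the genes were higher at an unadjusted p below 0.05 and 10.9% were higher without overlap. Hspa1a is uncertain for more than its level: reads in the shared stretches are divided between it and Hspa1b by estimation, and Gm20481 overlaps it on the opposite strand, at 0 to 2.81 TPM, in data whose strand is not given. The 2 genes taken as 1 feature had a log2 fold change of 0.32 (SE 0.39, limma adjusted p = 0.677).

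Dnajb1 encodes the HSP40 that hands substrates to HSP70. Its TPM was 9.99, 7.19 and 6.61 in the controls and 9.98, 9.02 and 8.11 in the CRISPRi mice, so the CRISPRi values fell inside the control range. The log2 fold change of Dnajb1 was 0.18 (SE 0.20, limma adjusted p = 0.635) and -0.0070 with median-of-ratios scaling. Hsph1 encodes HSP110, the nucleotide exchange factor that resets HSP70 and helps it to dissolve aggregates. Its TPM was 23.7, 12.2 and 11.9 in the controls and 24.99, 22.2 and 15.5 in the CRISPRi mice. Non-targeting mouse 1 lay among the CRISPRi mice and the other controls lay below all of them. The log2 fold change of Hsph1 was 0.41 (SE 0.29, 95% interval -0.25 to 1.08, limma adjusted p = 0.492), and 0.21 with median-of-ratios scaling.

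HSP90 is represented by 2 cytosolic genes. Hsp90ab1 encodes the constitutive HSP90 beta. Its TPM was 509, 288 and 354 in the controls and 478, 478 and 423 in the CRISPRi mice. The CRISPRi values were close to each other and lay within the wider control range. The log2 fold change was 0.30 (SE 0.22, 95% interval -0.19 to 0.79, limma adjusted p = 0.499), and 0.084 with median-of-ratios scaling. Hsp90aa1, which encodes the inducible HSP90 alpha, was at 336, 149 and 394 TPM in the controls and 346, 346 and 271 in the CRISPRi mice. Its highest and its lowest value were both in control mice. The log2 fold change of Hsp90aa1 was 0.24 (SE 0.34, limma adjusted p = 0.714). It was 0.023 with median-of-ratios scaling and -0.19 without non-targeting mouse 2.

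Hspb1 encodes HSP27 (HSP25 in mice), a small heat shock protein that holds unfolded protein without using ATP and stabilises actin. It varied most among the abundant members. Its TPM was 235, 40.5 and 168 in the controls and 388, 321 and 86.8 in the CRISPRi mice, a 5.81-fold range among the controls and a 4.47-fold range among the CRISPRi mice. CRISPRi mice 1 and 2 were the highest of the 6, while CRISPRi mouse 3 was below 2 of the controls. Group means were 148 ± 98.9 and 265 ± 158 (SD, n = 3 each), and the log2 fold change was 0.91 (SE 0.72, 95% interval -0.73 to 2.55, limma adjusted p = 0.529). Without non-targeting mouse 2 the log2 fold change was 0.15, and without CRISPRi mouse 3 it was 1.58 (unadjusted p = 0.0412, limma adjusted p = 0.454) and the groups did not overlap; without that mouse 8.09% of all genes were higher at an unadjusted p below 0.05 and 24.4% were higher without overlap. The libraries with the least Hspb1 also had the lowest summed TPM of the 6 cholangiocyte markers, 13.3 (non-targeting mouse 2) and 15.9 (CRISPRi mouse 3) against 23.7 to 25.7 in the other 4. Spp1 made up most of that sum, with 10.2 and 9.68 TPM in these 2 libraries against 14.8 to 19.1. Sox9 was also lowest in these 2 libraries, at 2.62 and 2.23 TPM against 2.69 to 5.58. Krt19, Krt7 and Epcam were lowest in non-targeting mouse 2 (0.264, 0.0823 and 0.207 TPM). In CRISPRi mouse 3 Krt19 was 2.98, above the 2.65 and 1.81 of non-targeting mice 1 and 3. Krt7 was 0.249 there, against 0.247 in non-targeting mouse 1, and Epcam was 0.771, against 0.756 in non-targeting mouse 3. Cftr was at no more than 0.0105 TPM. The cholangiocyte markers were set beside Hspb1 after their values were seen, and their part in the result was not tested.

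Hspd1 and Hspe1, which share the region printed above, encode HSP60 and its lid HSP10. Hspd1 was at 269.8, 128 and 136 TPM in the controls and 195, 209 and 184 in the CRISPRi mice. The CRISPRi mice were within 1.14-fold of each other and the controls spanned 2.11-fold, with non-targeting mouse 1 above all others. Hspd1 had a log2 fold change of 0.22 (SE 0.27, limma adjusted p = 0.675), and 0.0087 with median-of-ratios scaling. Hspe1 was at 924, 625 and 838 TPM in the controls and 819.7, 843 and 726 in the CRISPRi mice. Group means were 796 ± 154 and 796 ± 61.7 (SD, n = 3 each), with a log2 fold change of 0.02 (SE 0.18, 95% interval -0.40 to 0.43, limma adjusted p = 0.967). With median-of-ratios scaling the log2 fold change of Hspe1 was -0.20.

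Set against all genes, the members' counts were these. None of the 9 tested members passed an adjusted p of 0.05 in limma, where 0.0189% of all tested genes did, and none had an unadjusted p below 0.05, where 10.1% were higher and 3.19% lower (13.3% together). The groups did not overlap for 1 of the 9 (Hspa8), against 12.5% of all tested genes in the higher and 4.57% in the lower direction (17.1% together). All 9 had a log2 fold change above 0, from 0.02 to 0.91 with a median of 0.24, against 74.0% and a median of 0.18 over all genes. With median-of-ratios scaling 6 of the 9 were above 0, against 49.6% of all genes, their median was 0.023, and none separated the groups, against 9.37% of all genes in the higher direction.

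**Figure D2:**
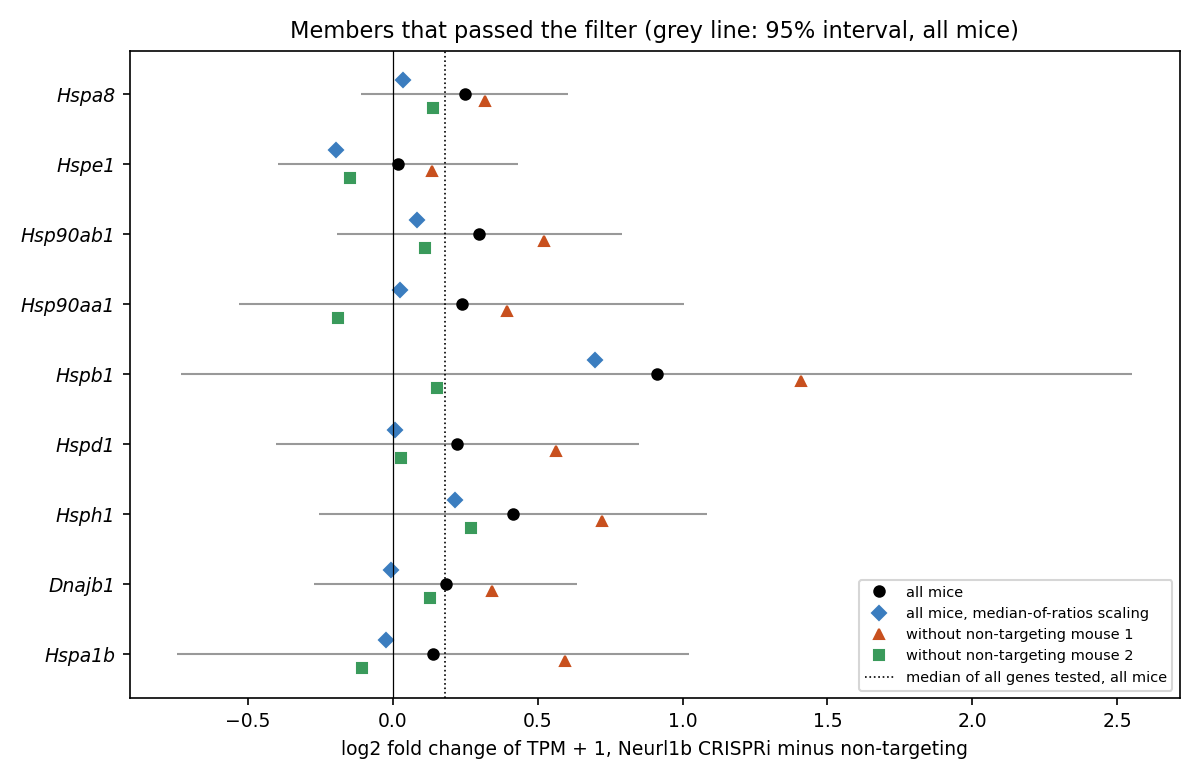
Log2 fold change of TPM + 1, Neurl1b CRISPRi minus non-targeting, for the 9 members that passed the filter, with the 95% interval of the fit with all mice as a grey line and symbols for that fit, median-of-ratios scaling, and fits without non-targeting mouse 1 or 2. Every grey line crosses 0, and the values without mouse 1 lie to the right of those without mouse 2 for all 9 genes.

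Single control mice moved these values. Without non-targeting mouse 1, Hspd1 (log2 fold change 0.56, limma adjusted p = 0.0267) and Hsp90ab1 (0.52, adjusted p = 0.0461) passed as higher in the CRISPRi mice, which is 2 of 9 members beside 23.1% of all genes that were called higher and 2.24% called lower in that fit. The groups did not overlap for 6 of the 9 members, against 52.3% of all genes in the higher direction, and all 9 were above 0, against 77.1%. With median-of-ratios scaling as well, none of the 9 passed, against 1.73% of all genes higher and 2.75% lower, and 2 of the 9 (Hspd1 and Hsph1) did not overlap, against 24.2% higher without overlap. Without non-targeting mouse 2 none of the 10 members then tested passed, against 0.0282% of all genes, and 7 of the 10 were above 0, against 71.1%. There the log2 fold changes of Hsp90aa1, Hspa1b and Hspe1 were -0.19, -0.11 and -0.15.

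The spread itself differed between the groups. The coefficient of variation among the 3 control mice was larger than that among the 3 CRISPRi mice for all 10 members, with medians of 43.0% and 12.0%. The same held for 80.7% of all tested genes, with medians of 25.2% and 10.9%. With median-of-ratios scaling it held for 9 of the 10 members, with medians of 25.03% and 9.90%, and for 75.0% of all genes, with medians of 19.5% and 10.8%. Non-targeting mouse 2 was the lowest library for 8 of the 10 members, and for 5 of the 10 with median-of-ratios scaling. Among all tested genes, non-targeting mouse 2 was lowest for 37.1% and non-targeting mouse 3 for 36.3% before that scaling. The shares of all genes with the scaling were not computed. Non-targeting mouse 2 also had the highest hepatocyte and red cell precursor marker sums, as given above, and their part in the low values was not tested.

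Most gene sums came from 1 transcript, but 3 did not. The leading transcript held at least 98.9% of the gene's TPM in every library for Hspd1, Hspe1 and Hspb1, 93.6% or more for Hsp90ab1 and 85.0% or more for Dnajb1, and Hspa1a and Hspa1b have 1 transcript each. Hspa8 was divided mainly between ENSMUST00000215526, with 42.6% to 60.4%, and ENSMUST00000117557, with 36.5% to 43.1%. The next transcript, ENSMUST00000015800, ranged from 2.996% in non-targeting mouse 3 to 13.4% in non-targeting mouse 1. For Hsp90aa1 the leading transcript ENSMUST00000021698 held 44.4% to 53.2%. In Hsph1 the leading transcript ENSMUST00000201877 had 11.6% in non-targeting mouse 3, against 37.6% to 51.8% in the other 5 libraries, while ENSMUST00000202361 had 66.5% there against 31.4% to 47.2%. In each of these 3 genes the shares of the CRISPRi mice overlapped those of the controls, and the division between transcripts of 1 gene is an estimate.

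**Figure D3:**
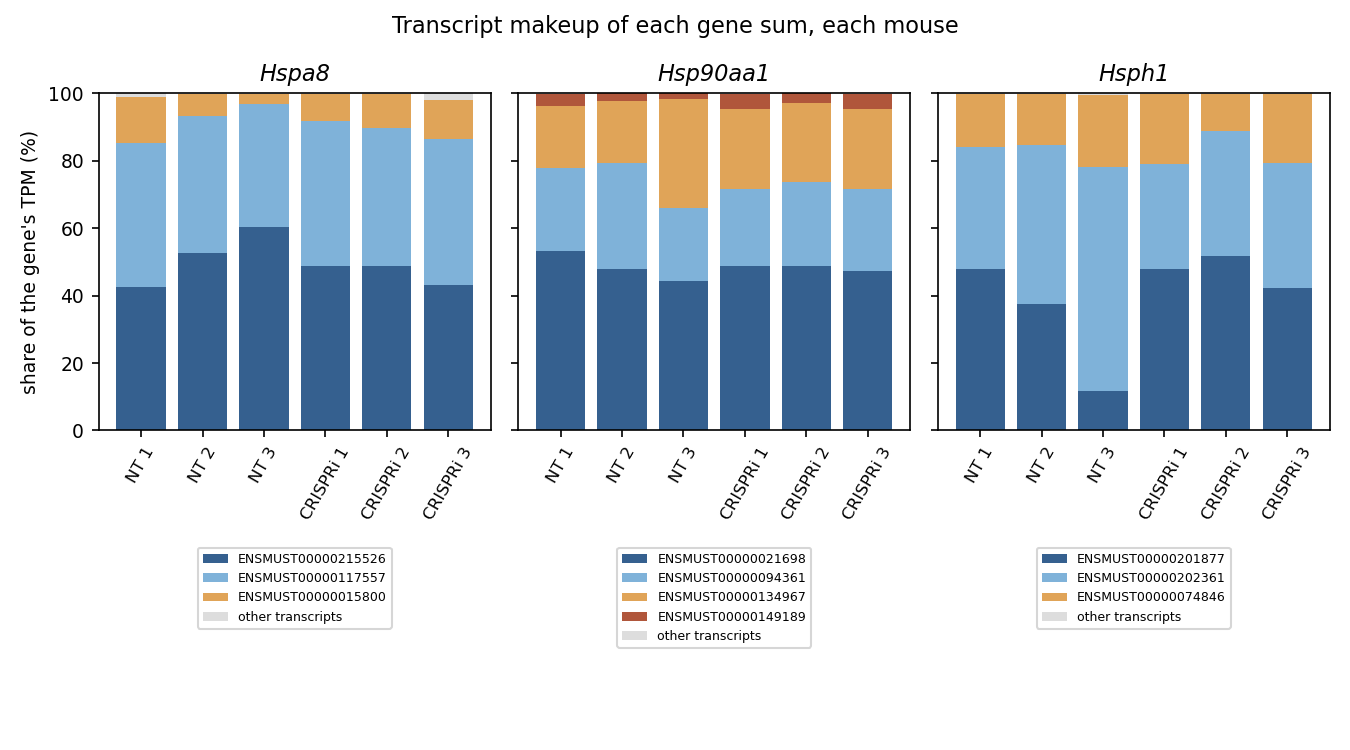
Share of each gene's TPM held by its main transcripts, in percent, for Hspa8, Hsp90aa1 and Hsph1, with 1 bar per mouse (NT, non-targeting) and all remaining transcripts in grey. Non-targeting mouse 3 has the smallest share of ENSMUST00000201877 in Hsph1, 11.6%, and the largest share of ENSMUST00000215526 in Hspa8, 60.4%.

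Ratios between members do not depend on a library's total and were tested by two-sided exact permutation, where 3 mice against 3 cannot go below p = 0.1. The inducible HSP70 pair over Hspa8 was 0.00578 ± 0.00367 in the controls and 0.00590 ± 0.00191 in the CRISPRi mice (SD, n = 3 each, exact permutation p = 0.8). Hsp90aa1 over Hsp90ab1, the inducible over the constitutive HSP90, was 0.763 ± 0.310 and 0.696 ± 0.049 (SD, n = 3 each, exact permutation p = 0.9). Non-targeting mouse 3 was the only library with more Hsp90aa1 than Hsp90ab1, at 1.11, against 0.519 to 0.724 elsewhere.

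Hspd1 over Hspe1 was 0.220 ± 0.066 and 0.246 ± 0.0077 (SD, n = 3 each, exact permutation p = 0.5). The ratio lay between 0.238 and 0.253 in the CRISPRi mice and between 0.163 and 0.292 in the controls, so the controls surrounded the CRISPRi values. Hsph1 over Hspa8 was 0.0176 ± 0.0060 and 0.0198 ± 0.0051 (SD, n = 3 each, exact permutation p = 0.7). Each of the 4 ratios had an adjusted p of 0.9, and in all 4 the groups overlapped.

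**Figure D4:**
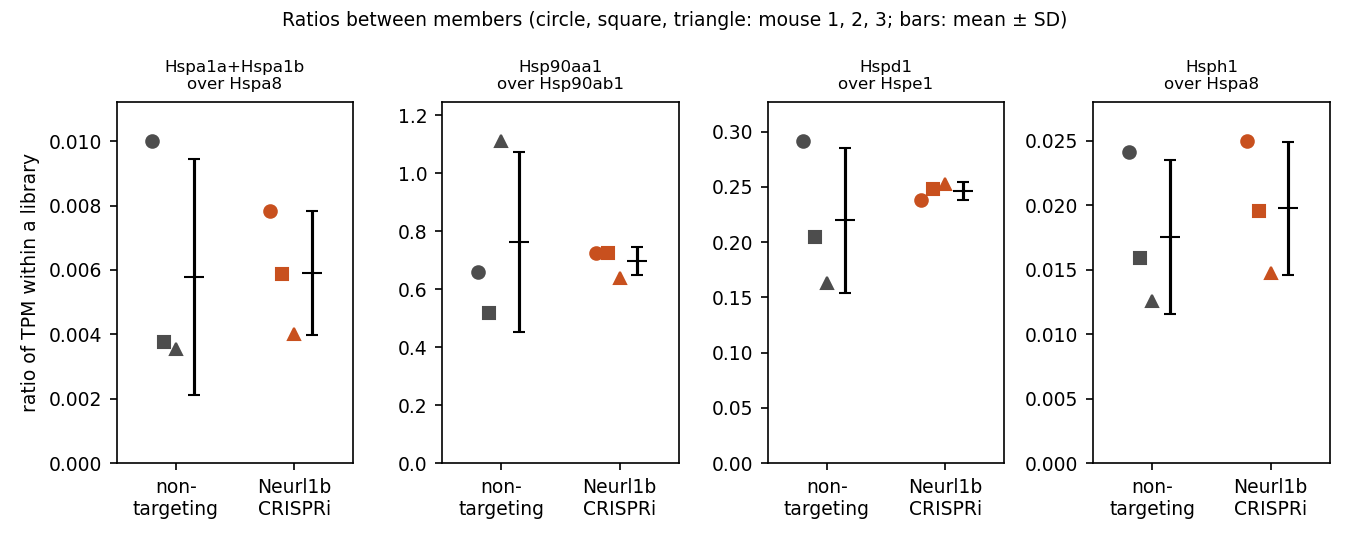
Ratio of TPM within each library for 4 pairs of members, with circles, squares and triangles for mice 1, 2 and 3 of each group and the mean with its SD beside them. The control mice are more scattered than the CRISPRi mice in each panel, and Hspd1 over Hspe1 runs from 0.163 to 0.292 in the controls.

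Other genes of the chaperone network were read from lists, none of whose genes passed an adjusted p of 0.05. The counts stand beside all tested genes, of which 10.1% were higher and 3.19% lower at an unadjusted p below 0.05, and 74.0% were above 0 with a median of 0.18. Of all tested genes, 12.5% were higher and 4.57% lower without overlap. Of 14 tested HSP70, HSP40 and small heat shock protein relatives, 2 were higher at an unadjusted p below 0.05 and 12 were above 0, with a median log2 fold change of 0.30. These 2 were Hspa2, an HSP70 best known from testis, with a mean TPM of 5.71 ± 2.30 against 2.77 ± 1.76, and Dnajb4, an HSP40, with 27.8 ± 0.899 against 18.5 ± 7.995 (SD, n = 3 each, limma adjusted p = 0.367 and 0.368). Hspb8, the small heat shock protein partner of BAG3, had a log2 fold change of 0.42 and Dnaja2 had 0.38. Hspb6, chosen after its values were seen, was the only gene of this list whose groups did not overlap, and its values were lower with CRISPRi (log2 fold change -0.30, limma adjusted p = 0.440).

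Of 16 cochaperones of HSP90 and HSP70, 14 were above 0 with a median of 0.22, and none had an unadjusted p below 0.05. The groups did not overlap for 1 of the 16, which was higher with CRISPRi, against 12.5% of all tested genes. Cdc37, which brings kinases to HSP90, had a log2 fold change of 0.60, the HSP70 exchange factor genes Bag2 and Hspbp1 had 0.60 and 0.43, and the myosin chaperone gene Unc45a had 0.41. The heat shock factor list gave 0 of 4 genes at an unadjusted p below 0.05. Hsf1, the regulator of the heat shock response, was at 6.74 ± 0.357 TPM in the controls and 6.60 ± 1.16 in the CRISPRi mice (SD, n = 3 each), a log2 fold change of -0.04. Hsf2 had 0.23, Hsf4 had 0.20 and Hsbp1, which encodes a binding partner of HSF1, had 0.09.

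Of 14 mitochondrial chaperone and protease genes, 12 were above 0 with a median of 0.23, and at an unadjusted p below 0.05 there was 1 higher and 1 lower. Dnajc19, which encodes a J protein of the inner membrane, was at 126 ± 19.7 TPM in the CRISPRi mice against 180.2 ± 38.1 (SD, n = 3 each, log2 fold change -0.51, limma adjusted p = 0.360). The protease genes Afg3l2 and Lonp1 had log2 fold changes of 0.56 and 0.48, and Hscb, a cochaperone gene of iron-sulfur cluster assembly, had 0.43. The groups did not overlap for 1 of the 14 (Hscb, higher), against 12.5% of all tested genes in that direction. Of 14 TRiC and prefoldin genes, which fold actin and tubulin, 12 were above 0 with a median of 0.14 and none had an unadjusted p below 0.05. Cct8, Cct6a and Pfdn2 had log2 fold changes of 0.55, 0.37 and 0.37, while Tcp1 had -0.27.

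Immediate early genes, which respond to stress and tissue handling within minutes, went both ways. Of 12 tested, 4 were higher and 2 lower at an unadjusted p below 0.05 (10.1% and 3.19% of all genes), and none passed the adjusted threshold. Egr1 was at 2.53 ± 0.646 TPM in the CRISPRi mice against 9.34 ± 2.69, and Ier2 at 14.1 ± 1.47 against 23.2 ± 2.42 (SD, n = 3 each). Jund and Dusp1 had log2 fold changes of 0.65 and 1.04. The groups did not overlap for 5 of the 12, these 4 and Klf6 (named after its values were seen), with 3 higher and 2 lower, against 12.5% and 4.57% of all genes.

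The genes with the pattern most like the heat shock members were found by Pearson's r over the 6 libraries, among 5118 genes whose mean TPM reached 10. The members and predicted genes (Gm numbers and Rik symbols) were left out of these candidates. Like the mean log2 value of the 10 members were Opa3, Mmadhc, Cited2, Casp8, Gpx2 and Skp1, with r of 0.991 to 0.997 and Spearman's rho of 0.829 to 1. Like Hsph1 alone were Decr2, Bsdc1, M6pr, Perp, Psmd7 and Pgap2, with r of 0.989 to 0.993. These are the highest of many values, and the median r of all candidates was 0.605 and 0.638, so no p is given. Cited2 shows the shared shape in TPM: 27.9, 10.6 and 15.5 in the controls and 28.0, 26.0 and 18.1 in the CRISPRi mice.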

How the data were processed

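Ribosome-bound polyadenylated RNA of 6 mouse livers was measured, 3 per group; titles gave groups and mouse numbers. The authors deposited TPM per transcript, made with kallisto and build mm39 per the submitters' processing notes; version, transcript set and filters were not given in these sources, and kallisto divides reads between similar transcripts by estimation. TPM keep no depth, so precision at low values is unknown. No per-sample column was left unused.

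TPM were summed by symbol. Left out were 168 transcripts lacking a symbol (116 to 143 TPM in a library). The 10598 genes whose mean TPM reached 1 were tested on log2(TPM + 1), a scale that understates changes of low genes, with limma 3.58.1 in R 4.3.3 (two-sided, with a trended prior and no covariate; threshold 0.05 after Benjamini-Hochberg adjustment). Hspa1a and Neurl1b were read from the fit without the filter. The fit was tested on simulated data with the same spread in both groups and no shift between libraries. Neither holds in these data, so that test does not cover them. No set test was run. Named were the 10 members, Neurl1b, the 4 of each other list that had the smallest p, and the 6 genes most like the members and most like Hsph1. Hspb6, Klf6, Gm20481 and the genes of the cell type marker lists were named outside that rule, after their values were seen. The members, lists and tests were chosen with earlier results of these data known. The GENCODE vM21 and RefSeq sequences are of GRCm38, another build than the table, and served only for sequence and gene order. The labels do not say whether the mouse numbers pair the samples, and the fit treated them as unpaired. Deviations of same-numbered mice correlated at 0.061, -0.096 and -0.28 across 10598 genes. Those of differently numbered mice correlated at -0.17 to 0.22. With so few mice per group these values cannot decide whether the numbers pair the samples. Whether each mouse had its own library preparation day is not given.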

Additional observations from a re-analysis of the deposited data

How the results depend on the processing

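The alternatives were pseudocounts of 0.1 and 5, a filter at a mean TPM of 5 or none, scaling by median-of-ratios or quantiles, TPM without mitochondrially encoded genes, a constant prior, leaving out each mouse, a replicate block by mouse number, an adjusted p of 0.1, the most abundant transcript alone, and pseudogene rows added. Leaving out non-targeting mouse 2 with median-of-ratios scaling was added after seeing the data. With all mice no member passed under any of them. With the replicate block the median of the members stayed at 0.24, 0 members passed, 1 did not overlap, 2 genes passed in all, and the log2 fold change of Hspa1a plus Hspa1b was 0.32 (adjusted p = 0.604).

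The count of genes past the threshold, 2 with all mice, was 0 with a pseudocount of 5, without the filter, with quantile normalization and without non-targeting mouse 2 under median-of-ratios scaling, and 1 with the filter at a mean TPM of 5. It was 472 without non-targeting mouse 1 under median-of-ratios scaling and 0 to 2673 over the fits that leave out a mouse. Those fits gave 0 to 2 members past the threshold and 1 to 6 members without overlap. In them, 1528 to 5522 of all genes were higher and 600 to 941 lower without overlap, of 10543 to 10646 tested. The count of members without overlap was 2 without the filter, where Hspa1a enters. Under median-of-ratios scaling it was 2 without non-targeting mouse 1, both higher, beside 24.2% of all genes. It was also 2 without non-targeting mouse 2, with Hspa1a higher and Hspe1 lower. There 1236 genes were higher and 1305 lower without overlap, of 10628. The count was 0 with median-of-ratios or quantile scaling of all mice. It was 0 too with the most abundant transcript alone, where Hspa8 overlapped and its log2 fold change was 0.12. The median of the members ranged from 0.12 to 0.52 when a mouse was left out, and was -0.030 without non-targeting mouse 2 under median-of-ratios scaling. The cause was not tested.

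Every member of the main test but Hsph1 changed sign under at least 1 of these settings. Hsp90ab1, Hspb1 and Hspd1 did so only in the setting added after seeing the data. Hspa1a was above 0 in each of the fewer settings in which it was tested. With median-of-ratios scaling Hspa1b had -0.023, Dnajb1 -0.0070 and Hspe1 -0.20, and with quantile normalization -0.045, -0.0023 and -0.022. With median-of-ratios scaling and without non-targeting mouse 1, Hspa8 had -0.036 and Hspe1 -0.22. The same scaling without non-targeting mouse 2 gave Hspa1b -0.22, Hspa8 -0.017, Hsp90aa1 -0.34, Hsp90ab1 -0.044, Hspb1 -0.0010, Dnajb1 -0.0072, Hspd1 -0.13 and Hspe1 -0.30. Over the fits that leave out a mouse, Hspa1b ranged from -0.11 to 0.60, Hsp90aa1 from -0.19 to 0.51 and Hspe1 from -0.15 to 0.13. In those fits the log2 difference of the ratios ranged from -0.11 to 0.64 for the inducible HSP70 pair over Hspa8, -0.30 to 0.25 for Hsp90aa1 over Hsp90ab1, and -0.022 to 0.45 for Hsph1 over Hspa8. With the most abundant transcript alone the last was 1.098 (exact permutation p = 0.5) and the log2 fold change of Hsph1 was 0.97.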
